A study of Drosophila melanogaster with 18 samples.

Results

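The genes of the fly's mitochondrial genome took a smaller share of the sequenced RNA of the antennal ear at 25 days than at 5 days of age, and the shares at 50 days overlapped with those at 25. The members described here are the 36 rows, of 16624 in the deposited table, whose gene name begins with "mt:". They hold 13 protein-coding genes, 2 ribosomal RNAs (rRNAs) and 21 transfer RNAs (tRNAs). A further row without a name lies among them in the annotation and had 0 to 3 reads, with a read in 5 of the 18 libraries, and was not counted.

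The ear is Johnston's organ (JO), which lies in the 2nd segment of the antenna, and RNA of that segment was sequenced from virgin flies of the wild-type strain Canton-S kept at 25 °C, males apart from females. Each age and sex has 2 libraries, named CT01 to CT18. CT01 and CT02 are males and CT03 and CT04 females of day 1, CT05 and CT06 are males and CT07 and CT08 females of day 5, and CT09 and CT10 are males of day 10, an age with no females. CT11 and CT12 are males and CT13 and CT14 females of day 25, and CT15 and CT16 are labelled male and CT17 and CT18 female of day 50. The segment holds JO neurons, glia, support cells, cuticle and muscle, and the libraries are of the whole segment. Fewer cells of a type, or fewer mitochondria, and less RNA per cell therefore cannot be told apart. Values are normalised counts, which are reads per gene divided by 1 size factor per library, and each p-value measures only the spread between these libraries, since nothing states that they came from separate cohorts.

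The libraries held 5815182 to 14315927 reads in genes, and both male libraries of day 25 were the shallowest. The markers of JO neurons *nompC* (490.7 to 966.7 normalised counts) and *iav* (663 to 1442), which encode mechanosensory channels, and *nompA* (263.8 to 865) of the support cells were present in every library. The sexes were checked with *roX1*, an RNA of male dosage compensation, and *Yp1*, which encodes a yolk protein of females. CT18, labelled female, had 16418 normalised counts of *roX1* where CT17 had 1118, and also 19045 of *Yp1*. CT16, labelled male, had 25444 of *Yp1* where CT15 had 1944, and also 21999 of *roX1*. Both libraries thus held high counts of the markers of both sexes. CT15 was itself above the 94.3 to 183.8 of *Yp1* in the male libraries up to day 25, and it was kept where CT16 and CT18 were left out. Results that rest on day 50 were therefore also taken without CT16 and CT18, and no direction between the sexes was drawn at that age.

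In insects as in other animals the mitochondrial genome is a small circle with genes on both strands, and it is transcribed into long precursors. tRNAs lie between most of the other genes, and their excision frees the messenger RNAs and rRNAs, many of which then receive a poly(A) tail. The proteins are core subunits of the respiratory chain (complexes I, III and IV) and of ATP synthase (complex V), whose other subunits are encoded in the nucleus and imported. The kit used for reverse transcription, SMART-Seq v4, is known to prime on poly(A), so a value here is the amount of RNA that this priming captured. The amounts of rRNA and tRNA in the cell were not measured.

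Mitochondrially encoded genes took 13.9, 14.03, 15.96 and 19.3% of the reads in genes in CT01 to CT04 at day 1 and 13.8, 16.8, 17.03 and 11.9% in CT05 to CT08 at day 5. CT09 and CT10, the males of day 10, had 9.16 and 8.15%. The libraries of day 25 lay between 6.57 and 6.93% and those of day 50 between 5.80 and 7.67%. Every library of day 1 and day 5 thus stood above every library of day 10, and these above all those of day 25 and day 50. The mean share was 15.8% ± 2.50 (SD, n = 4) at day 1, 14.9% ± 2.45 at day 5, 6.83% ± 0.174 at day 25 and 6.72% ± 0.8292 at day 50. Counting error is small beside this spread, since the 95% Wilson interval of a single library's share was at most ± 0.0234 percentage points, for counting error only.

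**Figure D1:**
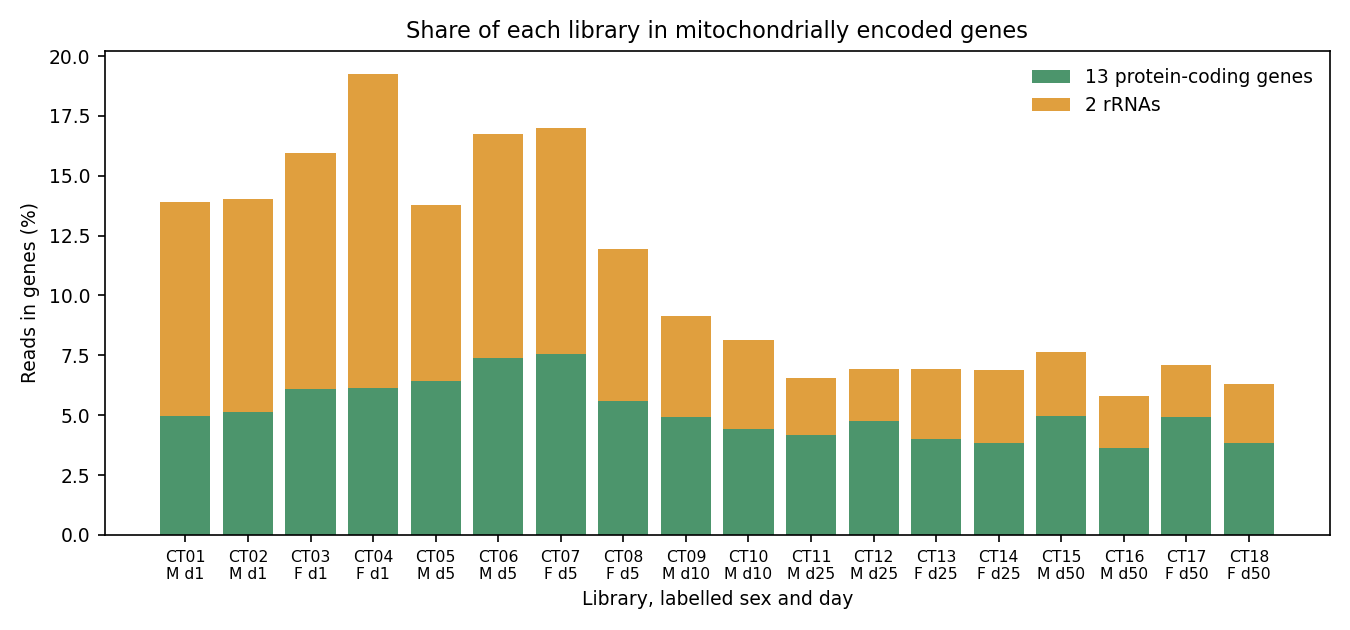
Share of reads in genes that fell in mitochondrially encoded protein-coding genes (green) and rRNAs (orange) in each of the 18 libraries, in percent, ordered by age and labelled by sex (M, F) and day. The whole bars stand between 11.9 and 19.3% at days 1 and 5, at 9.16 and 8.15% in the males of day 10, and between 5.80 and 7.67% at days 25 and 50, and the orange part shrank more than the green.

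Between day 5 and day 25 the share fell by 8.05 percentage points, and the groups did not overlap (exact permutation test, two-sided, p = 0.0286, the smallest that 4 against 4 libraries allow, and p = 0.0794 after Benjamini-Hochberg adjustment over 25 tests of shares and ratios). Over the whole span it fell by 9.08 points (exact permutation p = 0.0286, adjusted p = 0.0794). Without CT16 and CT18 it fell by 8.41 points, where 2 against 4 libraries cannot give an exact p below 0.133. The exact permutation p was 0.657 for day 5 against day 1 and 0.800 for day 50 against day 25, and the groups overlapped in both. Summed values of the cell type markers also moved with age. The 10 muscle markers summed to 61448 to 98553 normalised counts at day 1, 14670 to 18162 at day 5, 13218 to 17173 at day 10, 9388 to 10115 at day 25 and 8435 to 10647 at day 50, and their part in the fall of the mitochondrial share was not tested. None of the 10 was at 0. The 8 neuron markers summed to 16125 to 21397 at day 1, 17417 to 20620 at day 5 and 18642 to 19848 at day 10. They summed to 13511 to 17019 at day 25 and 17051 to 19868 at day 50. The 5 glia markers summed to 55458 to 67328 at day 1, 34917 to 41146 at day 5 and 21731 to 35793 at day 25. The pair of support cell markers summed to 25132 to 34709 at day 1, 553.3 to 753.9 at day 5 and 469.7 to 961.3 at day 25, where the step after day 1 was that of *alphaTub85E*, an alpha-tubulin, with 24868 to 34428 normalised counts at day 1 and 122.4 to 264.3 at day 5. The part of these markers in the fall of the share was not tested either.

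The 2 rRNAs and the 13 messenger RNAs did not keep a fixed proportion. The rRNA share was 10.2% ± 2.0003 at day 1, 8.14% ± 1.55 at day 5, 2.64% ± 0.412 at day 25 and 2.36% ± 0.242 at day 50 (SD, n = 4), with 4.21 and 3.72% in the males of day 10. The protein-coding share was 5.59% ± 0.617, 6.74% ± 0.903, 4.18% ± 0.393 and 4.34% ± 0.703 at the same ages, with 4.95 and 4.43% at day 10. Both fell after day 5 to day 25, and also over the whole span, without overlap (exact permutation test, p = 0.0286 for each). The protein-coding shares of day 1 and day 50 nearly touched, with 4.984% in CT01 and 4.979% in CT15. The tRNAs together took between 0.00532 and 0.0165% of the reads of a library.

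The log2 ratio of rRNA to protein-coding reads within a library does not depend on the scaling between libraries. It was 0.84, 0.79, 0.69 and 1.10 in CT01 to CT04 at day 1, 0.19, 0.35, 0.33 and 0.18 in CT05 to CT08 at day 5, and -0.23 and -0.25 in the males of day 10. At day 25 it was -0.79 and -1.12 in males and -0.44 and -0.34 in females, and at day 50 it lay between -1.18 and -0.66. The ratio dropped by 0.59 from day 1 to 5 and by 0.93 from day 5 to 25, with no overlap in either interval (exact permutation test, p = 0.0286 and adjusted p = 0.0794 for each). From day 25 to day 50 the groups overlapped (p = 0.400, exact permutation test). This ratio is in effect that of the large rRNA. With *mt:srRNA* alone in place of both, the first of these changes was 0.25 in the opposite direction (exact permutation p = 0.0857), and the second was -0.45 (exact permutation p = 0.0571).

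*mt:lrRNA* (FBgn0013686, minus strand of the mitochondrial genome, 12734 to 14058 in the deposited coordinates) is the rRNA of the large mitochondrial ribosomal subunit. It held 1103640, 1201620, 1229280 and 1727890 normalised counts in CT01 to CT04 at day 1. At day 5 it held 786366, 1178710, 997856 and 689699, and in the males of day 10 it held 487560 and 442671. At day 25 it held 216322 and 188868 in males and 299740 and 275210 in females, and at day 50 it held 269118, 228105, 247245 and 263848. Libraries of day 1 and day 5 overlapped, those of day 10 lay between all libraries of day 5 and all of day 25, and days 25 and 50 overlapped. It fell from day 5 to day 25 (log2 fold change -1.89 ± 0.29 SE, limma, adjusted p = 0.00212) and from day 1 to day 50 (-2.36 ± 0.29, adjusted p = 1.7e-05).

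*mt:srRNA* (FBgn0013688, minus strand, 14131 to 14916), the rRNA of the small subunit, was far less abundant. It ranged from 3137 to 4196 normalised counts at day 1, 3488 to 5550 at day 5, 1579 to 2008 at day 25 and 1385 to 2148 at day 50, with 3435 and 3189.8 in the males of day 10. Every library of days 1, 5 and 10 was above every library of days 25 and 50. Its log2 fold change was -1.3999 ± 0.15 over this step from day 5 (limma, adjusted p = 0.000247). The number of reads of *mt:lrRNA* for each read of *mt:srRNA* was 286.4 to 412 at day 1, 168.4 to 212.4 at day 5, 142 and 139 at day 10, 119.6 to 169 at day 25 and 113 to 190.5 at day 50.

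Tests of single genes were made with limma on log2 of the value plus 1, over the 14663 genes that reached 10 in 2 or more libraries, with a call at an adjusted p below 0.1 and a fold change above 1.5. Of the 36 members, 29 passed this filter, which were the 13 protein-coding genes, both rRNAs and 14 tRNAs. The other 7 tRNAs (*mt:tRNA:M*, *mt:tRNA:W*, *mt:tRNA:D*, *mt:tRNA:N*, *mt:tRNA:T*, *mt:tRNA:P* and *mt:tRNA:L:CUN*) had at most 11 reads in a library and were not tested. Without the filter 1 of these, *mt:tRNA:L:CUN*, rose from day 1 to day 5 (log2 fold change 1.41, limma adjusted p = 0.0964). A change between ages averages the male and the female change.

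From day 5 to day 25, 17 of 29 members fell and none rose, namely 11 of 13 protein-coding genes, both rRNAs and 4 of 14 tRNAs. Of all genes tested 3.93% fell and 8.76% rose in this interval. The median log2 fold change of the 13 protein-coding genes was -0.95 and that of all genes -0.02. All 13 were lower at day 25 in sign, from -1.24 for *mt:CoIII* to -0.40 for *mt:ND1*. From day 1 to day 5, 0 of 29 were called in either direction (1 at an unadjusted p below 0.05, *mt:tRNA:S:UCN*, and 0 with edgeR or DESeq2), beside 4.69% of all genes that rose and 8.78% that fell. In the same interval 9 of the 10 muscle markers, 2 of 5 of glia, 4 of 6 of hemocytes and *alphaTub85E* of the support cells fell. The other support cell marker, *nompA*, was not called. It had 263.8 to 347.05 normalised counts at day 1 and 425.9 to 489.6 at day 5, higher in every library.

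From day 25 to day 50, 3 of 29 members rose and none fell, beside 9.78% of all genes that rose and 17.4% that fell. They were *mt:ATPase6*, *mt:ATPase8* and *mt:tRNA:I*. Over the whole span from day 1 to day 50, 9 of 29 members fell and none rose, beside 12.8% of all genes that fell and 9.21% that rose. These were both rRNAs, *mt:CoIII*, *mt:Cyt-b*, *mt:ND3*, *mt:ND4*, *mt:ND4L*, *mt:ND5* and *mt:tRNA:Q*. Without CT16 and CT18 the log2 fold changes after day 25 were 0.97 for *mt:ATPase6*, 0.93 for *mt:ATPase8* and 0.74 for *mt:tRNA:I*. Over the whole span those of the 9 members that fell then ran from -2.33 for *mt:lrRNA* to -0.33 for *mt:ND3*. Among these, *mt:Cyt-b*, *mt:ND3* and *mt:tRNA:Q* were no longer called. With all libraries kept, the share of members called from day 25 to day 50 was close to the share of all genes that rose. Leaving out CT16 and CT18 leaves 1 library of each labelled sex at day 50, so calls of that fit were not set beside those of all genes. Markers of fat body (3 of 5), hemocytes (4 of 6) and photoreceptors (6 of 9) also rose in this last interval, with summed values of 2233 to 7172, 2352 to 3042 and 10686 to 18625 at day 25 and 8634 to 17291, 3984 to 4551 and 5610 to 119880 at day 50, and their part in the rises of members was not tested. The photoreceptor markers also differed widely between libraries of the same age, with sums of 2251 to 105770 at day 5 and 6391.5 to 70935 in the males of day 10. Of these markers *ninaE* had 522.9 normalised counts in CT05 and 77899 in CT06, both males of day 5. No marker in these lists was at 0 throughout.

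**Figure D2:**
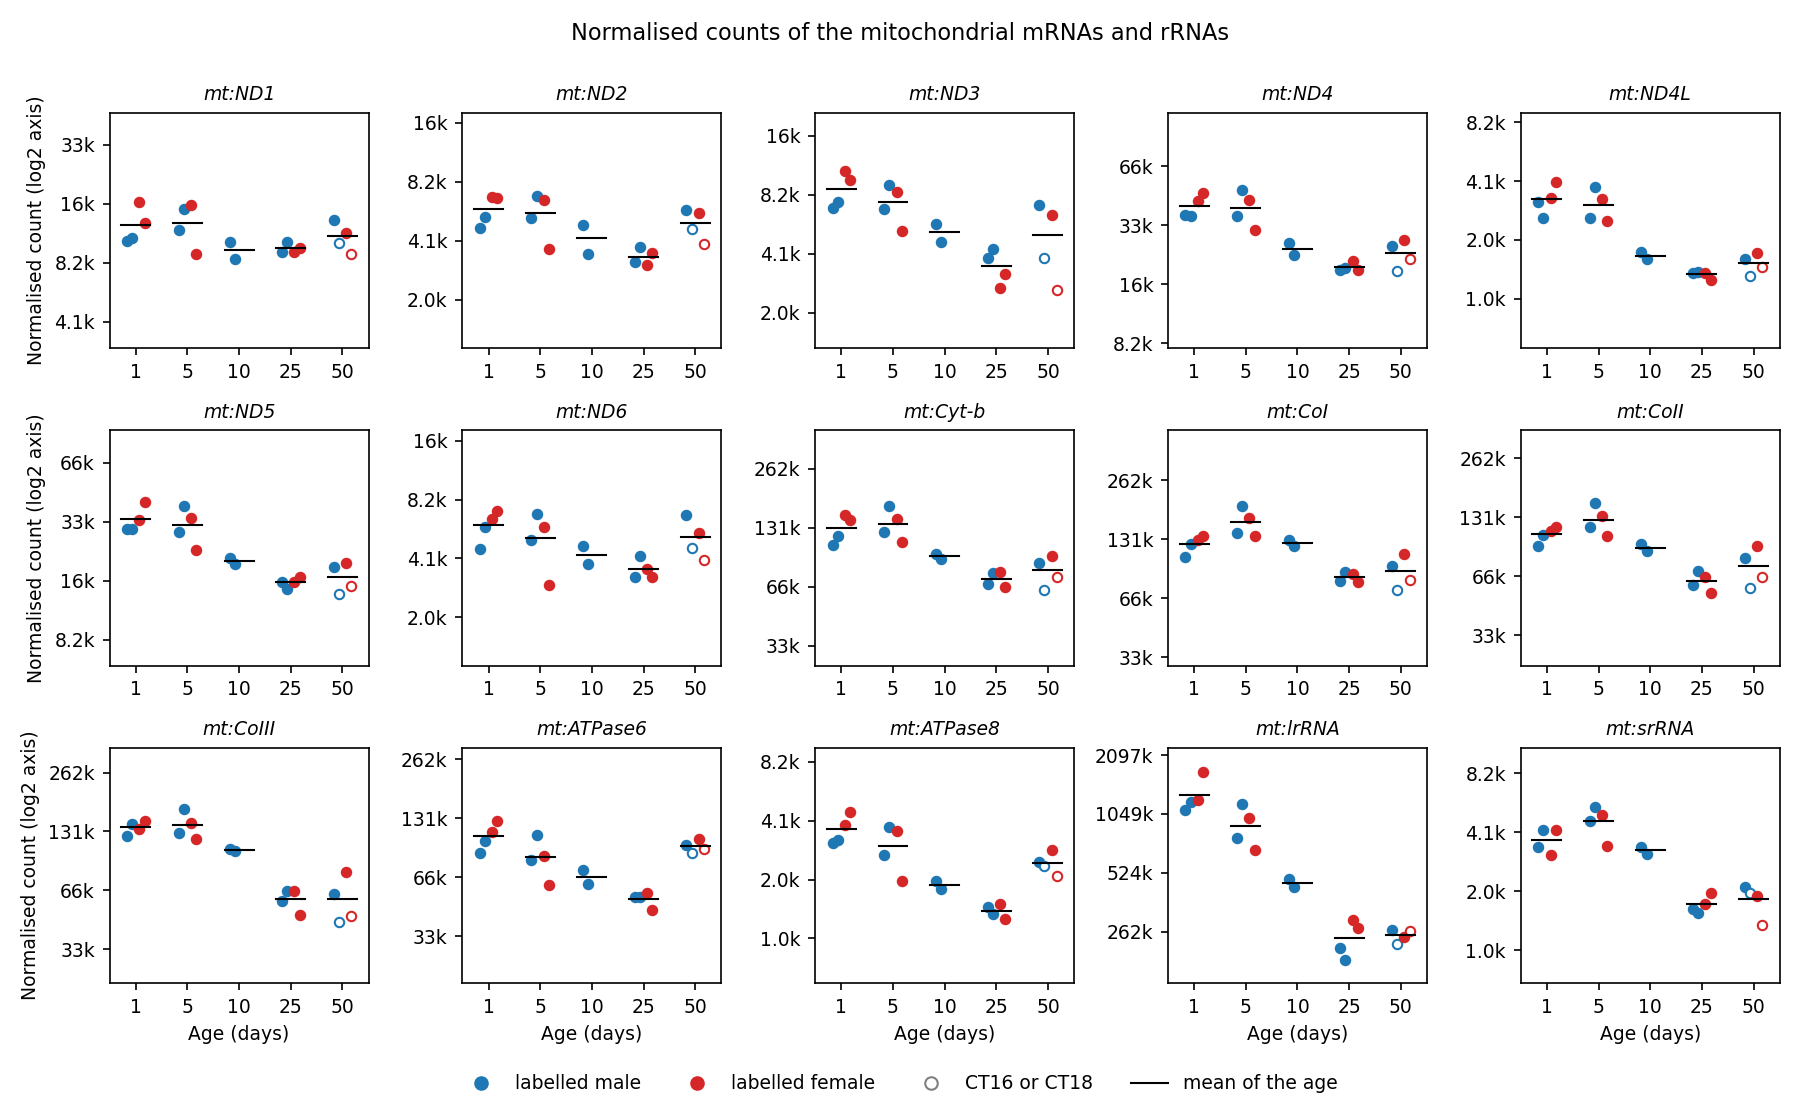
Normalised counts (log2 axis) of each mitochondrial messenger RNA and rRNA against age in days, 1 point per library, blue for libraries labelled male and red for female, open for CT16 and CT18, with the mean of each age as a bar. *mt:lrRNA* dropped from between 689699 and 1727890 at days 1 and 5 to between 188868 and 299740 at days 25 and 50, and the 4 day 50 values of *mt:ATPase6* (87012 to 102942) lie within the range of its day 1 values.

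Complex I (NADH dehydrogenase) draws 7 of its core subunits from the mitochondrial genome, and 5 of these genes fell from day 5 to day 25. *mt:ND4L* (FBgn0013683, minus strand, 9544 to 9834) ranged from 2648 to 4075 normalised counts at day 1, 2570 to 3817 at day 5, 1285 to 1411 at day 25 and 1347 to 1750 at day 50, with 1768 and 1643 in the males of day 10. Libraries of day 5 and day 25 stood well apart, with a log2 fold change of -1.15 ± 0.14 (limma, adjusted p = 0.00034). *mt:ND4* (FBgn0262952, minus strand, 8206 to 9544), its neighbour with which it shares 1 base, went from 30840 to 49777 at day 5 to 19310 to 21596 at day 25 (-0.99 ± 0.17, adjusted p = 0.00449).

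*mt:ND5* (FBgn0013684, minus strand, 6402 to 8124), a proton-pumping subunit, ranged from 23579 to 39510 normalised counts at day 5 and 14812 to 17146 at day 25 (log2 fold change -0.95 ± 0.17, limma adjusted p = 0.00532). *mt:ND3* (FBgn0013681, plus strand, 5608 to 5961) went from 5329 to 9174 to 2732 to 4327 (-1.07 ± 0.25, adjusted p = 0.0127), and *mt:ND2* (FBgn0013680, plus strand, 240 to 1265) from 3728 to 6945 to 3069 to 3825 (-0.70 ± 0.19, adjusted p = 0.024). For *mt:ND2* the lowest library of day 5, CT08, was below the highest of day 25, CT12. Its call was lost when libraries were scaled to the total of all genes (-0.43, adjusted p = 0.126).

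*mt:ND1* and *mt:ND6* were the remaining subunits of complex I and were not called. *mt:ND1* (FBgn0013679, minus strand, 11720 to 12658) had a log2 difference of -0.40 ± 0.18 from day 5 to day 25 (limma, adjusted p = 0.159) and *mt:ND6* (FBgn0013685, plus strand, 9970 to 10494) of -0.48 ± 0.20 (adjusted p = 0.144). In both, the female day 5 library CT08 was low beside the other libraries of that age, with 9047 and 2999 normalised counts against at least 12024 and 5117. Without CT08, which leaves only CT07 as a female library of day 5, the log2 differences were -0.61 and -0.72. Leaving out the low library was bound to enlarge the differences, so no call is read from these values.

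*mt:Cyt-b* (FBgn0013678, plus strand, 10498 to 11634), the mitochondrially encoded subunit of complex III, ranged from 110367 to 169175 normalised counts at day 5 and 65500 to 77938 at day 25. Its log2 fold change was -0.92 ± 0.20 (limma, adjusted p = 0.0104). Its value at day 50 was 63133 to 94131, below every library of day 1 (107388 to 152556), and the log2 fold change from day 1 was -0.72 ± 0.20 (adjusted p = 0.0163). Without CT16 and CT18 that change was -0.52 (adjusted p = 0.160) and was not called.

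Complex IV (cytochrome c oxidase) has *mt:CoI*, *mt:CoII* and *mt:CoIII* as its catalytic core, and all 3 fell from day 5 to day 25. *mt:CoIII* (FBgn0013676, plus strand, 4736 to 5524) held 123619, 143578, 134850 and 149027 normalised counts in CT01 to CT04 at day 1, 128718, 169934, 145012 and 120275 at day 5, and 106735 and 104142 in the males of day 10. At day 25 it held 58085, 65417, 65362 and 49206 and at day 50 62880, 45287, 81128 and 48217. Every library up to day 10 was above every later one, with log2 fold changes of -1.24 ± 0.22 from day 5 to 25 (limma, adjusted p = 0.00475) and of -1.25 ± 0.22 from day 1 to 50 (adjusted p = 0.000498, and -0.94 without CT16 and CT18, adjusted p = 0.0140).

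*mt:CoI* (FBgn0013674, plus strand, 1474 to 3009) held 106194 to 137017 normalised counts at day 1 and 136436 to 194175 at day 5. At day 25 it held 79123 to 89698 and at day 50 71976 to 110523. From day 5 to day 25 its log2 fold change was -0.91 ± 0.20 (limma, adjusted p = 0.0111). *mt:CoII* (FBgn0013675, plus strand, 3083 to 3767), which carries the copper centre that takes electrons from cytochrome c, held 93647 to 116971 at day 1, 105077 to 154688 at day 5, 53811 to 69833 at day 25 and 57260 to 93321 at day 50 (-1.03 ± 0.20 from day 5 to day 25, adjusted p = 0.00746). Neither was called from day 1 to day 50 (-0.48 ± 0.20, adjusted p = 0.101, and -0.55 ± 0.20, adjusted p = 0.0637, below the fold limit).

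**Figure D3:**
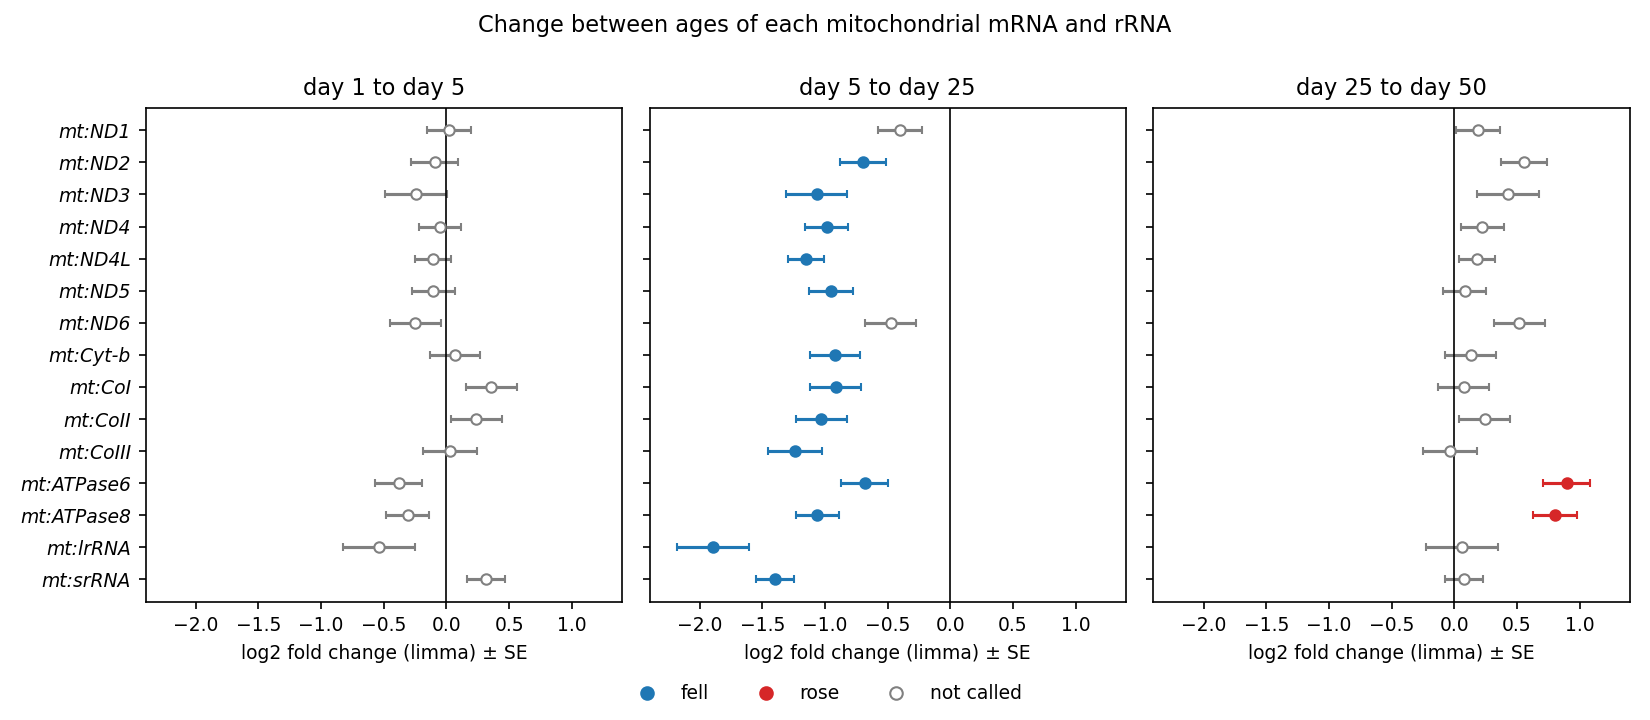
log2 fold change (points) with its standard error (bars) from limma for each mitochondrial messenger RNA and rRNA in the 3 successive intervals of age, filled blue where called as fallen, filled red where called as risen, open grey where not called. No gene was called from day 1 to day 5, *mt:ND1* and *mt:ND6* alone were not called from day 5 to day 25, and *mt:ATPase6* and *mt:ATPase8* rose from day 25 to day 50.

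Complex V (ATP synthase) draws *mt:ATPase6*, a part of the proton channel, and *mt:ATPase8* from the mitochondrial genome, and both fell and later rose. *mt:ATPase6* (FBgn0013672, plus strand, 4062 to 4736) held 86807, 100845, 112078 and 127132 normalised counts in CT01 to CT04 at day 1, 80236, 107939, 84027 and 59809 at day 5, and 71081 and 60483 in the males of day 10. At day 25 it held 52170, 51842, 54658 and 44371, and at day 50 it held 96110, 87012, 102942 and 91418. Every library of day 25 was below every other library, and day 50 lay within the range of day 1.

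The log2 fold change of *mt:ATPase6* was -0.68 ± 0.19 from day 5 to 25 (limma, adjusted p = 0.0287) and 0.90 ± 0.19 from day 25 to 50 (adjusted p = 0.00542, and 0.97 without CT16 and CT18, adjusted p = 0.0352). From day 1 to day 50 the difference was -0.17 ± 0.19 (adjusted p = 0.563). The fall was no longer called with the libraries scaled to the total of all genes (-0.41, adjusted p = 0.0773) or to the genes outside the mitochondrial genome (-0.54, adjusted p = 0.0336), and also without CT06 (-0.58, adjusted p = 0.114), without CT07 (-0.56, adjusted p = 0.0976), without CT12 (-0.68, adjusted p = 0.101) or without CT14 (-0.61, adjusted p = 0.126). The direction was the same in all of these.

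*mt:ATPase8* (FBgn0013673, plus strand, 3907 to 4068) shares 7 bases with *mt:ATPase6*, and both lie on a common messenger RNA. It ranged from 3130 to 4548 normalised counts at day 1, 2015 to 3819 at day 5, 1280 to 1541 at day 25 and 2145 to 2888 at day 50, with 2010 and 1826 in the males of day 10. Its log2 fold change was -1.06 ± 0.17 from day 5 to 25 (limma, adjusted p = 0.00347) and 0.80 ± 0.17 from day 25 to 50 (adjusted p = 0.00586, and 0.93 without CT16 and CT18, adjusted p = 0.0312). The libraries of day 25 did not overlap with those of any other age.

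*mt:CoIII* begins on the last base of *mt:ATPase6*, but the proportion of these neighbours changed with age. The log2 ratio of *mt:ATPase6* to *mt:CoIII* reads was -0.51, -0.51, -0.27 and -0.23 in CT01 to CT04 at day 1, -0.68, -0.65, -0.79 and -1.01 at day 5, and -0.59 and -0.78 in the males of day 10. It was -0.15, -0.34, -0.26 and -0.15 at day 25 and 0.61, 0.94, 0.34 and 0.92 in CT15 to CT18 at day 50. Reads of *mt:CoIII* were thus the more numerous in every library up to day 25 and those of *mt:ATPase6* in every library of day 50.

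This ratio was chosen after the values had been seen. It differed by -0.40, 0.56 and 0.93 over the 3 successive intervals and by 1.08 over the whole span, each without overlap (exact permutation test, p = 0.0286 for each of 4). Without CT16 and CT18 the last pair of differences was 0.70 and 0.86, where the exact test cannot pass. How reads over the shared base, or over the 7 bases shared by the ATP synthase genes, were assigned is not given in the sources used here.

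**Figure D4:**
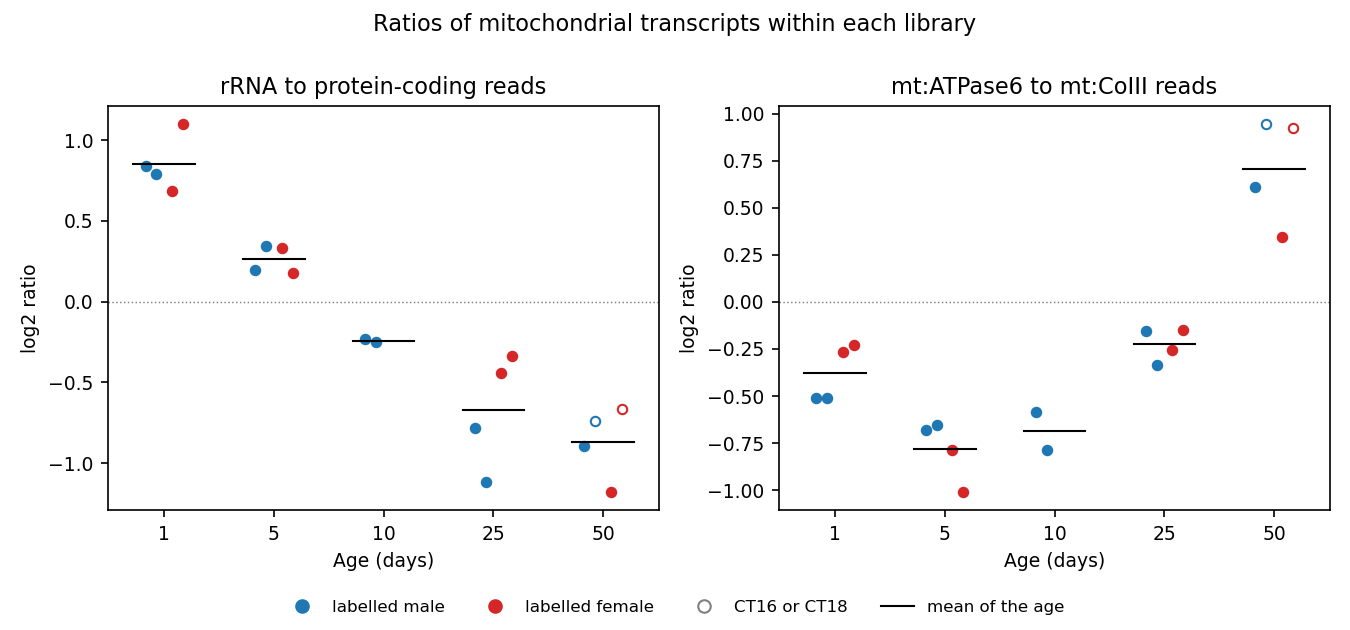
log2 ratio of rRNA to protein-coding reads (left) and of *mt:ATPase6* to *mt:CoIII* reads (right) against age in days, 1 point per library, blue for libraries labelled male and red for female, open for CT16 and CT18, with the mean of each age as a bar. The left ratio went from a mean of 0.85 at day 1 to -0.87 at day 50, and the right ratio was below 0 in every library up to day 25 and between 0.34 and 0.94 at day 50.

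Levels were compared between genes per kb of gene length. *mt:lrRNA* led in all 18 libraries with a mean of 496174 normalised counts per kb (SD 356580, n = 18). *mt:CoII* (135147), *mt:CoIII* (126846) and *mt:ATPase6* (121067) followed, and their order changed with age. *mt:CoIII* was above *mt:CoII* in 4 of 4 libraries of day 1 and below it in 4 of 4 at each of days 5, 25 and 50. *mt:ATPase6* was below both in 4 of 4 libraries of day 5 and above both in 4 of 4 of day 50, where it had 128906 to 152507 per kb beside 57398 to 102823 of *mt:CoIII* and 83592 to 136235 of *mt:CoII*. Over all ages the order of the means held in 13 of 18 libraries for the first pair and in 12 of 18 for the second. *mt:Cyt-b* had 91144 and *mt:CoI* 75351 per kb, and *mt:CoI* was above *mt:ND4* (22841) in every library. The other protein-coding genes lay between 4796 for *mt:ND2* and 17296 for *mt:ND3*. *mt:srRNA* was lowest of the 15 with 3877 per kb, below *mt:ND2* in 13 of 18 libraries. The step in counts per kb between *mt:CoI* and *mt:ND4* separates the genes of complexes III and IV and *mt:ATPase6* from those of complex I and *mt:ATPase8*. Yet *mt:ATPase8*, of 162 bases, had 15928 per kb beside 121067 of *mt:ATPase6*, although both lie on a common messenger RNA. Counts per kb therefore need not follow the amounts of RNA between genes, and the step is not read as one of RNA amount.

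Genes of both strands were among those that fell. The 4 protein-coding genes of the minus strand, *mt:ND1*, *mt:ND4*, *mt:ND4L* and *mt:ND5*, held between 10.1 and 13.5% of the protein-coding reads of a library. *mt:ND1* varied least of the 15 genes, with its highest library 1.94 times its lowest, and *mt:lrRNA* most, at 9.15 times.

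**Figure D5:**
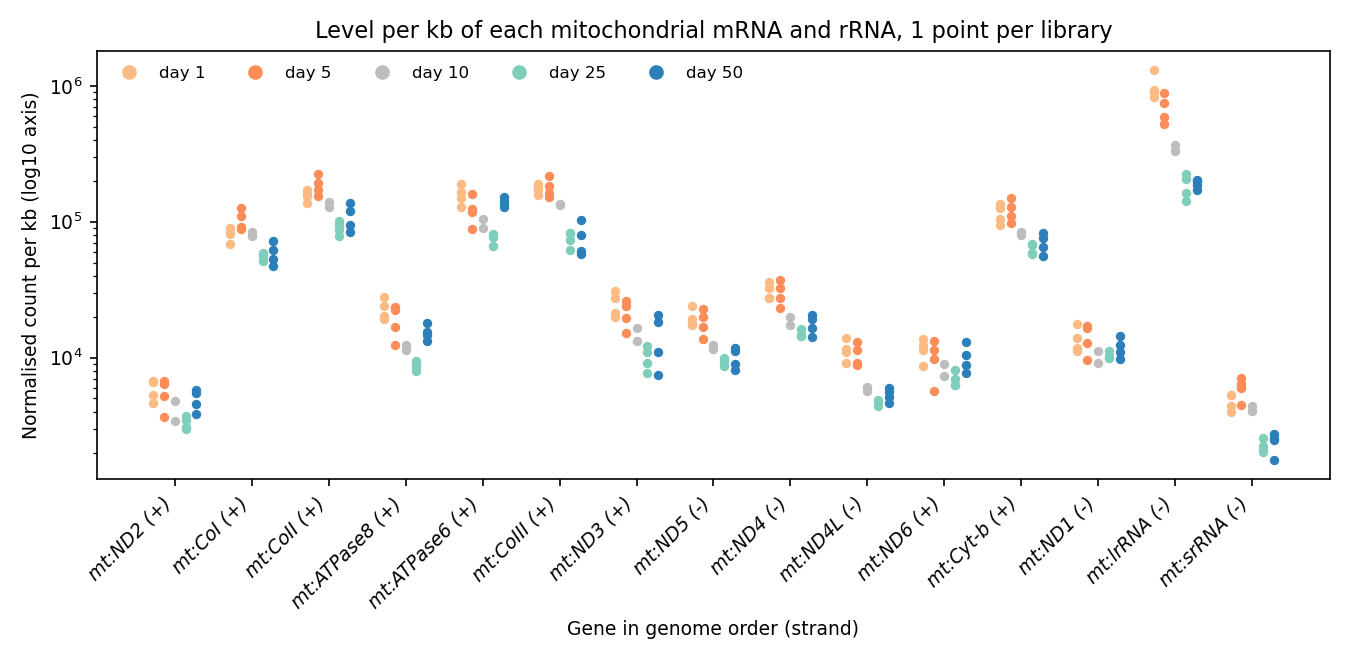
Normalised count per kb of gene length (log10 axis) of the 13 protein-coding genes and 2 rRNAs in the order in which they lie on the mitochondrial genome, with the strand in brackets, 1 point per library, coloured by age in days. *mt:lrRNA* is highest (mean 496174 per kb), *mt:CoII*, *mt:CoIII* and *mt:ATPase6* follow, and *mt:ND2* (4796) and *mt:srRNA* (3877) are lowest.

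tRNAs are short and carry no long poly(A) tail, and a read in a mature tRNA cannot be told apart here from a read in an uncut precursor. The most abundant was *mt:tRNA:A* (FBgn0013689, plus strand, 5981 to 6045), which carries alanine, with 402 to 1093 normalised counts. *mt:tRNA:F* (FBgn0013693, minus strand, 6337 to 6401; phenylalanine) had 44.0 to 210.3, and *mt:tRNA:R* (FBgn0013704, plus strand, 6055 to 6118; arginine) 16.9 to 116. None of these 3 was called in any comparison under the deposited scaling.

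*mt:tRNA:I* (FBgn0013696, plus strand, 1 to 65), which carries isoleucine, was the clearest of the tRNAs that changed. It held 28.5, 25.6, 65.3 and 47.3 normalised counts in CT01 to CT04 at day 1, 55.4, 70.05, 80.1 and 46.6 at day 5, and 40.1 and 28.7 in the males of day 10. At day 25 it held 12.4, 13.6, 11.95 and 14.1, and at day 50 22.1, 32.5, 22.7 and 21.2. All libraries of day 25 were below all others, with log2 fold changes of -2.16 ± 0.31 from day 5 (limma, adjusted p = 0.00157) and of 0.85 ± 0.31 to day 50 (adjusted p = 0.0524). The rise was lost without CT16 and CT18 (0.74, adjusted p = 0.233) and with scaling to the total of all genes (0.65, adjusted p = 0.147).

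The other tRNAs called from day 5 to day 25 rest on few reads. *mt:tRNA:Q* (FBgn0013703, minus strand, 97 to 165; glutamine) had 7.47 to 13.3 normalised counts at day 5 and 0 to 4.66 at day 25, where the library at 0, CT14, allows up to 2.83 (3 reads). *mt:tRNA:L:UUR* (FBgn0013699, plus strand, 3012 to 3077; leucine) had 10.7 to 24.6 at day 5 and 0 to 11.1 at day 25, where the library at 0, CT11, allows up to 4.66. *mt:tRNA:K* (FBgn0013697, plus strand, 3768 to 3838; lysine) had 11.3 to 17.6 and then 1.71 to 11.3.

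The log2 fold changes of these 3 were -1.85 ± 0.55 (limma, adjusted p = 0.0406), -1.77 ± 0.56 (adjusted p = 0.0509) and -1.46 ± 0.55 (adjusted p = 0.0992), and no bound is meant where a library was at 0. The call of *mt:tRNA:K* was lost with edgeR on the recovered reads (-1.39, adjusted p = 0.162). Each of the 3 was lost when 1 library was left out, *mt:tRNA:Q* for instance without CT14 (-1.39, adjusted p = 0.198), *mt:tRNA:L:UUR* without CT11 (-1.18, adjusted p = 0.163) and *mt:tRNA:K* without CT13 (-0.92, adjusted p = 0.279). In the deposited coordinates *mt:tRNA:W* (FBgn0013709, plus strand, 1264 to 1329; tryptophan) overlaps *mt:ND2* by 2 bases and *mt:tRNA:C* (FBgn0013690, minus strand, 1322 to 1383; cysteine) by 8, so their reads are uncertain. In the dm6 reference annotation *mt:ND2* ends at 1263, before *mt:tRNA:W* begins. *mt:tRNA:W* had 0 to 6.21 normalised counts and *mt:tRNA:C* 1.69 to 44.4.

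Day 10 was sampled in males only and falls within the interval in which the members changed. Between day 5 and day 10, 0 of 29 members were called by limma (8 at an unadjusted p below 0.05, all lower at day 10), as were 0% of all genes that rose and 0% that fell. All 13 protein-coding genes and both rRNAs were lower in sign, with a log2 difference of -1.05 ± 0.41 for *mt:lrRNA* (adjusted p = 0.674) and -0.90 ± 0.20 for *mt:ND4L* (adjusted p = 0.236). edgeR called 0 members, and DESeq2 called *mt:lrRNA* (-1.08, adjusted p = 0.0103) and *mt:ND4L* (-0.92, adjusted p = 0.0256). Of all 14663 genes DESeq2 called 43 as fallen and 13 as risen, and edgeR 0.

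From day 10 to day 25 in males, 6 of 29 members fell and none rose, beside 12.2% of all genes that fell and 16.8% that rose. They were *mt:lrRNA* (log2 fold change -1.20 ± 0.41, limma adjusted p = 0.0463), *mt:srRNA* (-1.03 ± 0.21, adjusted p = 0.00983), *mt:CoIII* (-0.77 ± 0.30, adjusted p = 0.0776), *mt:tRNA:I*, *mt:tRNA:K* and *mt:tRNA:L:UUR*. The other 12 protein-coding genes were not called. With 2 libraries a group, leaving out CT09, CT10, CT11 or CT12 leaves 1 library in a group. Calls of members were then lost, all of them without CT12, where most calls of all genes were lost as well. With any 1 of the 18 libraries left out, the log2 fold change ran from -1.30 to -1.10 for *mt:lrRNA*, -1.08 to -0.98 for *mt:srRNA* and -0.86 to -0.69 for *mt:CoIII*. With libraries scaled to the total of all genes, which raised the median of all genes by 0.41 in this interval, 3 members fell and 3 tRNAs (*mt:tRNA:A*, *mt:tRNA:E*, *mt:tRNA:F*) rose.

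Between the sexes no member was called. Over the ages 1, 5 and 25 days together, 0 of 29 differed between males and females (0 at an unadjusted p below 0.05, and 0 with edgeR and with DESeq2), beside 0.409% of all genes that were higher in males and 2.73% that were lower. The log2 differences of the protein-coding genes, male minus female, ran from -0.07 to 0.07. The mitochondrial share was 13.9 and 14.03% in males against 15.96 and 19.3% in females at day 1, 13.8 and 16.8% against 17.03 and 11.9% at day 5, and 6.57 and 6.93% against 6.93 and 6.89% at day 25 (exact permutation test over 6 against 6 libraries, p = 0.675).

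The changes with age were also compared between the sexes. At an adjusted p below 0.1, limma found 0 of 29 members and 0 of 14663 genes whose change differed in any of the 4 intervals. At an unadjusted p below 0.05 there were *mt:ND6* from day 1 to day 5 (male minus female 0.89 ± 0.41) and *mt:tRNA:A*, *mt:tRNA:E* and *mt:tRNA:R* from day 1 to day 50. The intervals that end at day 50 hold CT16 and CT18 by their labels, so no direction is given for these tRNAs. *mt:lrRNA* at day 25 was lower in both males (216322 and 188868) than in both females (299740 and 275210), where 2 against 2 libraries cannot give an exact p below 0.333.

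Nuclear genes of the same complexes were read beside the members, and the difference between the 2 sets of genes was not tested. From day 1 to day 5 no mitochondrially encoded gene was called. In that interval 13 of 33 nuclear subunits of complex I tested and 4 of 8 of complex III fell. Of complex IV 4 of 9 fell and of ATP synthase 11 of 12. None rose, beside 8.78% of all genes that fell and 4.69% that rose. The median log2 fold changes of the 4 lists were -0.43, -0.57, -0.58 and -0.71, beside 0.03 for all genes. Examples are *CG5548*, the subunit ND-B18 of complex I (-1.02 ± 0.14, limma adjusted p = 9.94e-05), *ox* of complex III (-0.76 ± 0.14, adjusted p = 0.000907), *levy* of complex IV (-0.70 ± 0.14, adjusted p = 0.00202) and *ATPsyn-gamma* of ATP synthase (-0.84 ± 0.14, adjusted p = 0.0004). Markers of muscle, glia and hemocytes and *alphaTub85E* of the support cells also fell in this interval, as given above. Their part in it was not tested. Under scaling to the total of all genes 5, 0, 0 and 1 members of the 4 lists were called in this interval. Of all 14769 genes 880 fell and 1526 rose under that scaling. The medians of the lists were then -0.22, -0.37, -0.38 and -0.51. Without CT03, which leaves 1 female library of day 1, fewer genes of complex I were called.

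From day 5 to day 25, 2, 3, 2 and 1 members of the same 4 lists fell and none rose, with medians of -0.37, -0.49, -0.51 and -0.50, beside 3.93% of all genes that fell. Under scaling to the total 0 of each list were called, beside 204 of 14769 genes that fell, and the medians were -0.09, -0.21, -0.24 and -0.22. The count of complex IV was 0 without CT06, CT08 or CT14 and 5 without CT13, and that of ATP synthase 0 without CT08 or CT14 and 5 without CT05, CT07 or CT13. *CG14482*, the subunit UQCR-6.4 of complex III, had the largest of these falls (-0.85 ± 0.14, limma adjusted p = 0.00343), followed by *Ucrh* (-0.80 ± 0.14) of the same complex and *CG32230*, the subunit ND-MLRQ of complex I (-0.77 ± 0.14). From day 25 to day 50 only *ox* was called (0.71 ± 0.14, adjusted p = 0.00369), beside 9.78% of all genes that rose, and the medians were 0.37, 0.39, 0.42 and 0.36. Under scaling to the total *ox* was not called, and the medians were 0.16, 0.17, 0.20 and 0.14. From day 1 to day 50, 12.8% of all genes fell and 9.21% rose, and under scaling to the total 1188 of 14769 fell and 2935 rose. In that span 13 of 33, 4 of 8, 5 of 9 and 10 of 12 members of the lists fell and none rose, among them *blw*, the alpha subunit of ATP synthase (-1.02 ± 0.17, adjusted p = 0.00032). Without CT16 and CT18 these counts were 11, 5, 7 and 11, and under scaling to the total 5, 1, 0 and 7. In males from day 5 to day 10 none was called. From day 10 to day 25, 20 of 33, 5 of 8, 7 of 9 and 10 of 12 fell, among them *CoIV* of complex IV (-1.04 ± 0.18, adjusted p = 0.00876), beside 12.2% of all genes that fell and 16.8% that rose. Without CT12, which leaves 1 male library of day 25, most of the calls in these lists were lost, as were most calls of all genes. Under scaling to the total the counts of the 4 lists were 1, 0, 1 and 0, beside 246 of 14769 genes that fell and 3886 that rose. Between the sexes none was called.

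Few genes that copy, transcribe and process mitochondrial DNA and RNA were called. Of 9 tested genes of mitochondrial DNA transcription and replication, 0 were called in the first and the last interval. *mtDNA-helicase*, the replicative helicase, rose from day 5 to day 25 (log2 fold change 0.64 ± 0.21, limma adjusted p = 0.0572), also under scaling to the total (0.91, adjusted p = 0.00983). *mtTFB2*, a transcription factor of mitochondria, was called from day 1 to day 50 (-0.67 ± 0.28, adjusted p = 0.0947), but not with edgeR (-0.61, adjusted p = 0.1201), without the filter, with TMM or under scaling to the total (-0.41, adjusted p = 0.294). *TFAM*, which packages the mitochondrial DNA, was called in males from day 10 to day 25 (-0.70 ± 0.29, adjusted p = 0.0966), but not without the filter (adjusted p = 0.107) or under scaling to the total (-0.29, adjusted p = 0.532). From day 5 to day 25 its difference was -0.43 ± 0.21 (adjusted p = 0.199). The mitochondrial RNA polymerase, *mtRNApol*, had -0.13 ± 0.16 from day 5 to day 25 (adjusted p = 0.681). Of 9 tested genes of mitochondrial RNA processing and stability only *scu*, a subunit of the enzyme that trims the 5′ ends of tRNAs, was called, with -0.69 ± 0.20 from day 1 to 5 (adjusted p = 0.0264) and -0.69 ± 0.28 in males from day 10 to 25 (adjusted p = 0.0829), and neither was called under scaling to the total (-0.48, adjusted p = 0.0579, and -0.28, adjusted p = 0.445). That scaling instead called 3 rises in males from day 10 to 25, of *mtDNA-helicase*, *mTerf5* and *mtRNApol*, and 3 from day 1 to day 50, of *CG15896*, *CG5190* and *JhI-1*. The medians of the 2 lists from day 5 to day 25 were -0.13 and 0.07, beside -0.02 for all genes.

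Across the 18 libraries the members followed each other, which is given as a description because the libraries share ages and scaling. The correlation of each gene with the mean of the protein-coding genes other than itself (Pearson, log2 values) ran from 0.74 for *mt:ATPase6* to 0.98 for *mt:ND4*, and *mt:lrRNA* had 0.89. Of 10309 genes outside the mitochondrial genome that averaged 50 normalised counts or more, those most like the mean of the protein-coding genes over the 18 libraries were *CG14482* (r = 0.892), *CG32230* (0.876), *mRpL34* (0.856), *CG17272* (0.855) and *Cpr47Ef* (0.850). *CG14482* had a mean of 2858 normalised counts at day 1, 1837 at day 5, 1020 at day 25 and 1315 at day 50.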

How the data were processed

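The deposited signal (normalised counts) is the number of reads of a gene over the library's DESeq2 size factor, as the authors computed it. Whole reads were recovered from them (100% within a tolerance of 0.01). The authors' methods give the SMART-Seq v4 kit, Nextera XT, paired reads of 75 bp, alignment to dm6 in Partek Flow and counting with HTSeq. Tool versions, strand setting and the treatment of overlapping genes are not given in the sources used here. Gene positions and lengths are the deposited ones, and strands come from the dm6 reference annotation. For some genes that annotation differs by a few bases, as for *mt:ND5*, which it places at 6409 to 8125. The authors' deposited mean signal, log2 fold changes, their standard errors, Wald score and p-values were not used.

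Values were taken to log2 after adding 1 and fitted with limma 3.58.1 (trend) in R 4.3.3, 1 coefficient per age and sex, over 14663 genes with a value of at least 10 in 2 libraries or more, with 9 residual and 7.42 prior degrees of freedom and Benjamini-Hochberg adjustment over all genes. Where no tool is named, the p of a gene is limma's. Shares and ratios were tested with exact permutation tests (scipy). The median library had 12194186 reads in genes, and the number of libraries limits the precision more than depth except for tRNAs. The fit was tested on simulated data. Other fits used edgeR 4.0.16 or DESeq2 1.42.0 (recovered reads), other pseudocounts, filters, scalings and limits, an additive model, and leaving out libraries.

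Members and lists were chosen with earlier results of these data known. Genes named are every protein-coding gene and rRNA, the tRNAs that were called, most abundant or overlapping, up to 4 members of a nuclear list with the largest called changes, and the 5 genes most like the members. *TFAM* and *mtRNApol* outside their calls, and genes called only under an alternative, were named after their values were seen. Of 85 entries in the 6 nuclear lists 80 were matched to the table. Marker lists of muscle, neurons, support cells and other cells were read beside the results. No sequence is shown.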

Additional observations from a re-analysis of the deposited data

Results flagged for a closer look

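In 2 of 80 groups of 4 libraries, 1 library stood apart from the other 3 by a gap beyond Dixon's 95% limit, and chance alone gives about 1 such group in 20. At day 25 the share of reads in mitochondrially encoded genes was 6.57% in the male library CT11, beside 6.89 to 6.93% in the others. At the same age *mt:ND4L* had 1285 normalised counts in the female library CT14, beside 1390 to 1411 in the others.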

How the results depend on the processing

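Of 35 calls of single members, none changed direction under any alternative that was run. Changed limits reuse the same fold changes, so they could not reverse a call. Over the alternatives other than leaving out 1 library, 423 of 472 were still called the same way. These include the setting with no fold limit, which could not lose a call. Of the 35, scaling to the total of all genes lost 9 and scaling to genes outside the mitochondrial genome lost 7. A fold limit of 2 lost 14. Counts of members called are given next where they moved by more than 1.5-fold, or from or to 0. For leaving out 1 library the whole range is given. From day 1 to day 5 there was 1 without the filter and 2 under scaling to the total or to genes outside the mitochondrial genome, against 0. All were rises, beside 668 of 16624, 1526 of 14769 and 1429 of 14718 genes that rose under these 3 settings. A fold limit of 2 left 11 of 17 from day 5 to day 25, 5 of 9 from day 1 to day 50 and 0 of 3 from day 25 to day 50. In this last interval no fold limit gave 5 rises of members, beside 2629 rises of all 14663 genes. In males, DESeq2 called 2 from day 5 to day 10, and a mean of at least 50 left 3 of 6 from day 10 to day 25. Of all genes, 43 of 14663 fell under DESeq2 and 1775 of 10327 under that filter in these intervals. Leaving out 1 library gave 13 to 17 from day 5 to day 25, 3 to 6 from day 25 to day 50 (6 without CT16 or without CT18, 5 without CT12), 8 to 13 from day 1 to day 50, and 0 to 7 from day 10 to day 25 in males.

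Without CT16 and CT18, the changes from day 1 to day 50 were -8.41 percentage points for the mitochondrial share, -1.89 for the log2 rRNA ratio and 0.86 for the log2 ratio of *mt:ATPase6* to *mt:CoIII* (0.70 from day 25), each with the smallest exact permutation p possible, 0.133. With *mt:srRNA* alone the rRNA ratio changed by 0.25 (days 1 to 5), -0.45 (5 to 25) and -0.38 (1 to 50), and males minus females was 0.048. Differences in the share that were not significant changed sign: without *mt:lrRNA* it changed by 1.12 points (days 1 to 5) and 0.15 (days 25 to 50), and without CT16 and CT18 by 0.55 (days 25 to 50). Leaving out 1 library gave -1.63 to 0.24 (days 1 to 5), -0.43 to 0.19 (days 25 to 50) and -2.22 to 0.25 (males minus females), and -0.37 to 0.026 for the rRNA ratio of the sexes. With 1 library left out, where the smallest exact p is 0.0571, the share changed by -9.03 to -7.33 points (days 5 to 25) and -9.70 to -7.92 (days 1 to 50). The rRNA ratio then changed by -0.65 to -0.51, -1.04 to -0.78 and -1.79 to -1.62 (days 1 to 5, 5 to 25 and 1 to 50), and the ratio of *mt:ATPase6* to *mt:CoIII* by -0.45 to -0.33, 0.48 to 0.60, 0.85 to 1.05 and 1.01 to 1.20 (days 1 to 5, 5 to 25, 25 to 50 and 1 to 50). No paired analysis was possible because nothing in the labels ties a library of one group to a library of another.

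Scaling to the total of all genes raised the median of all genes by 0.20 (days 1 to 5) and 0.27 (days 5 to 25) on the log2 scale, and dropped it by 0.22 (days 25 to 50). Of all genes it gave 2455 rises and 204 falls from day 5, and 3886 and 246 in males from day 10, to day 25.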
